A study of Arabidopsis thaliana with 8 samples.

Results

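Cytochrome P450 genes of Arabidopsis thaliana were followed in roots and shoots of plants exposed to 2,5-dimethylpyrazine (2,5-D), a volatile that microbes release. Members were the genes of the deposited tables with a P450 family symbol (CYP and a family number) or a product name with cytochrome P450 in the RefSeq annotation. Of 3691 listed genes, 54 met this rule, 5 loci are not analysed here, and 49 were kept. These 49 were 19.1% of the 257 P450 loci of the annotation. A further 2 cyclophilin genes, which share the letters CYP, were not members.

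Cytochrome P450s are haem enzymes that mostly use molecular oxygen and electrons from a reductase to hydroxylate or otherwise oxidise small molecules. In plants they act in the synthesis and breakdown of most hormones, in sterol, carotenoid, cutin and phenylpropanoid pathways, in chemical defence and in the detoxification of foreign compounds. Their families group into clans. The large clan 71 holds most enzymes of specialised metabolism, and clans 72, 85 and 86 hold many hormone, sterol and fatty acid oxidases. The members here came from 21 families and 26 subfamilies: 29 from clan 71, 7 from clan 72, 3 from clan 85, 4 from clan 86 and 4 from clans with a single family. For 2 short genes named only as P450 family proteins, AT1G52565 (129 residues) and AT3G15760 (135 residues), no family was given.

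All plants were wild-type Col-0 seedlings in divided plates. The 4 groups were root with water, root with 2,5-D, shoot with water and shoot with 2,5-D, each with 2 libraries. The compound stood at 100 µM on a paper disc on the other side of the plate, and control discs carried water. The labels give 24 h for the treatment and also 14 days of co-cultivation, so the length of contact is not settled by them. The labels do not say whether the 2 libraries of a group came from different plants. The p-values below then cover only the variation among these 8 libraries, and some of it may be technical. In whole organs, fewer cells of a type and less RNA per cell cannot be told apart.

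The deposited values are normalized expression values without a named unit. Low values multiplied by transcript length gathered at steps, with the first step at 0.0732 to 0.0855 per kilobase in the 8 libraries. The values are therefore read here as per transcript length, with 1 sequenced fragment worth about that much. Replicates correlated at r = 0.946 in shoot water and at 0.988 to 0.996 in the other groups, on log2(value + 1). On value + 1, 8 of 49 members were over 2-fold apart in the shoot water pair (16.3%, background 15.0% of listed genes). All 8 were higher in replicate 2. On the same scale no member was over 2-fold apart in the other 3 pairs. Of the organ markers, 6 of 16 shoot markers and 5 of 16 root markers were in the tables. The 6 shoot markers (3 of them antenna genes) summed to 7762 to 14722 in shoot and to 118 to 164 in root libraries. The 5 root markers, among them CASP1 and CASP2 of the endodermis, summed to 162 to 494 in root and to 13.3 to 23.3 in shoot libraries. CASP1 was at 0.09 and 1.22 in shoot water and at 0.1 and 0 in shoot 2,5-D libraries. CASP2 was listed at 0 in 2 of the 4 shoot libraries.

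Which genes are listed bears on every count below. All 49 members separated the 2,5-D pair from the water pair without overlap in at least 1 organ, and all but 2 of the 3691 listed genes did so too. The tables thus look picked on these same libraries. A call below is made among genes already chosen, and is no independent evidence of a response.

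**Figure D1:**
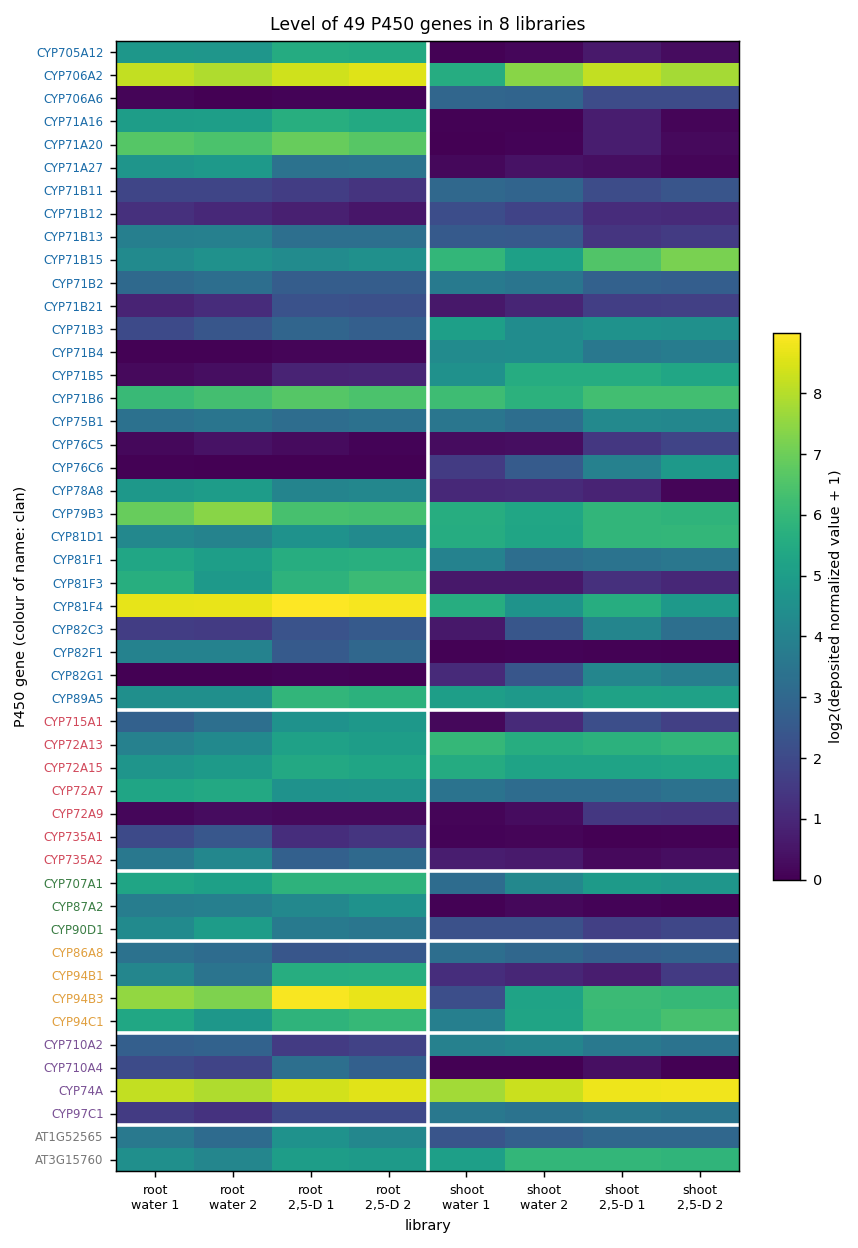
Each cell gives log2(deposited normalized value + 1) of 1 P450 gene (rows, ordered by clan, with names coloured by clan) in 1 library (columns). Numbers 1 and 2 name the libraries of a group. CYP81F4, CYP74A, CYP706A2 and CYP94B3 hold the highest root values, and several rows of clan 71 are near 0 in 1 organ and high in the other.

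The organs differed widely in which P450 genes they expressed. In 22 members (44.9%) all 4 root values lay above all 4 shoot values, against a background of 31.5% of listed genes. In 13 members (26.5%) all 4 shoot values lay above all 4 root values, against 18.6%, and 14 members overlapped. Within 2,5-D libraries alone 22 members (44.9%) had both shoot values above both root values, against a background of 40%, and within water libraries alone 17 did (34.7%, background 25%). The reverse order was seen in 26 members (53.1%, background 49.9%) within 2,5-D libraries and in 23 (46.9%, background 55.5%) within water libraries. No test is given for these levels, since nothing states that both tables were normalized together. In root water libraries the highest values per length belonged to CYP81F4 (408 and 410.4), an enzyme that modifies indole glucosinolates. CYP706A2 (289 and 243) and CYP74A (288 and 240.01) came next, and these 2 overlapped each other. In shoot water libraries CYP74A was highest (215 and 309), above CYP706A2 (46.1 and 168). CYP74A is allene oxide synthase, the committed step of jasmonate synthesis, and its water levels in the organs overlapped.

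Several genes were close to silent in 1 organ. CYP71A20 was at 96.6 and 85.7 in root water and at 0 and 0.07 in shoot water libraries. CYP71A16 (31.5 and 31.8 in root water and 0.04 and 0.04 in shoot water), CYP705A12 (26.4 and 25.6 and 0.04 and 0.11), CYP82F1 (15 and 14.8 and 0.04 and 0.07) and CYP87A2 (13.2 and 13.7 and 0.04 and 0.14) had the same order. Their shoot values rest on few fragments, about 14, 12, 2 and 4 at most in any shoot library, so no fold is given. CYP710A4 was listed at 0 in both shoot water libraries and at 3.14 and 2.59 in root water. In the other direction, CYP71B4 was at 19.1 and 19.6 in shoot water and at 0.04 and 0.04 in root water, which is about 2 fragments at most in a root library. CYP706A6 (6.88 and 6.39 in shoot and 0.09 and 0.02 in root water) and CYP71B5 (22.4 and 46.4 in shoot and 0.17 and 0.27 in root water) were likewise low in root. CYP82G1 was listed at 0 in both root water libraries, and CYP76C6 in 1 of them.

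**Figure D2:**
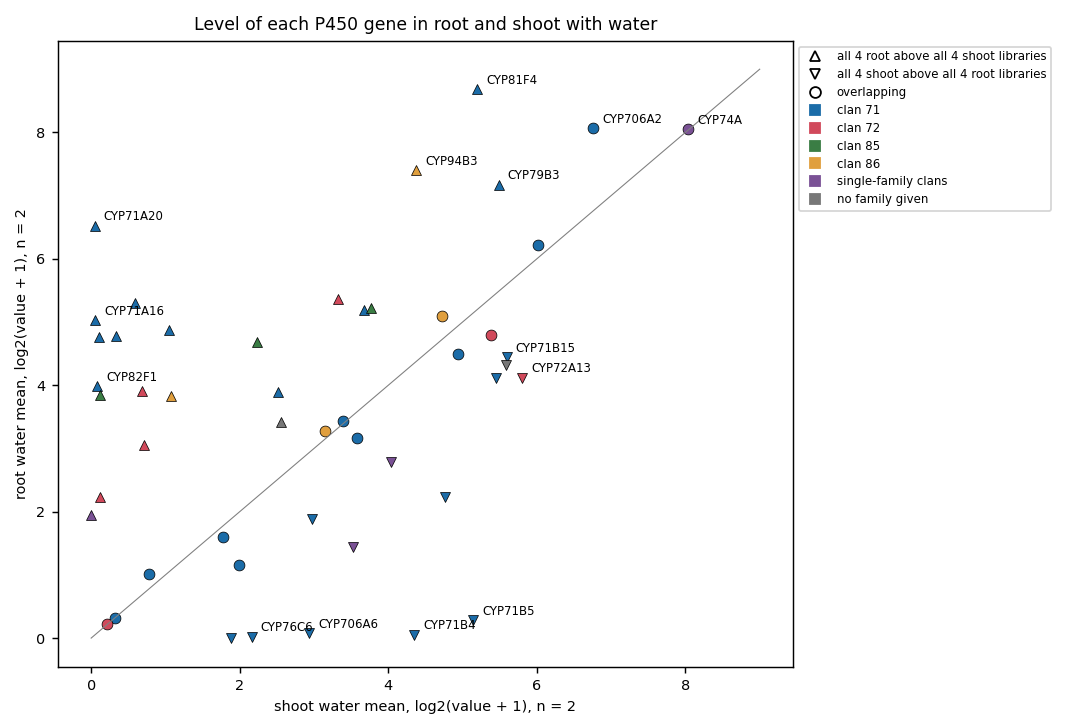
Mean level of each of the 49 P450 genes in root water (vertical axis) and shoot water libraries (horizontal axis), both as log2(value + 1) over 2 libraries. Colours mark clans and marker shapes show whether all 4 libraries of one organ exceed all 4 of the other; 22 genes point to root, 13 to shoot and 14 overlap.

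Within roots most P450 genes of the tables differed between 2,5-D and water. Of 41 members tested in root (mean of at least 1 over the 4 libraries), 21 rose and 12 fell, and 8 did not pass an adjusted p of 0.05. This is 51.2% higher, against a background of 39% of the 3487 genes tested, and 29.3% lower, against 22.5%. The median log2 change of the members was 0.44, beside 0.26 over all tested genes. The remaining 8 members were below the filter in root, namely CYP76C5, CYP76C6, CYP72A9, CYP82G1, CYP71B4, CYP71B5, CYP706A6 and CYP71B12. With 2,5-D replicate 1 left out, 10 members passed as higher and 6 as lower, and without 2,5-D replicate 2 the counts were 9 and 9. All 8 libraries in a single fit gave 11 higher and 12 lower. Counts over all genes are not given for the left-out and single fits. In what follows, a bare value in parentheses after a left-out library or another setting is limma's adjusted p of that fit. Of the called members, 7 higher and 6 lower kept the call whichever library was left out. The root markers moved too: all 5 were lower with 2,5-D, with sums of 372 to 494 in water and 162 to 205 with 2,5-D. Their part in the P450 changes was not tested.

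In shoots no member passed, and no other tested gene did. Of 3376 genes tested in shoot 0% passed, with a smallest adjusted p of 0.0524 by limma. At an unadjusted p under 0.05, 11 of 37 members tested were higher (29.7%, background 30.1%) and 8 lower (21.6%, background 19.2%). Both 2,5-D values lay above both water values in 23 of 49 members (background 49.7%) and below them in 12 (background 25.9%). These shares are near the background. The median log2 change was 0.28 in members and 0.37 over all tested genes, and scaling the libraries to equal medians moved these to -0.12 and -0.0093. Under that scaling 68 of 3373 genes tested passed as higher and 435 as lower, among them 1 member as higher and 7 as lower. Without shoot water replicate 1 the counts were 18 and 7, and without shoot water replicate 2 they were 17 and 10; the lone water library is then assumed to vary like the 2,5-D pair. With all 8 libraries in a single fit, 10 members passed as higher and 7 as lower. Counts over all genes are not given for the left-out and single fits, so these are not read as a P450 result. The 6 shoot markers summed to 13577 to 14722 with water and 7762 to 9289 with 2,5-D; their part in the P450 values was not tested.

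**Figure D3:**
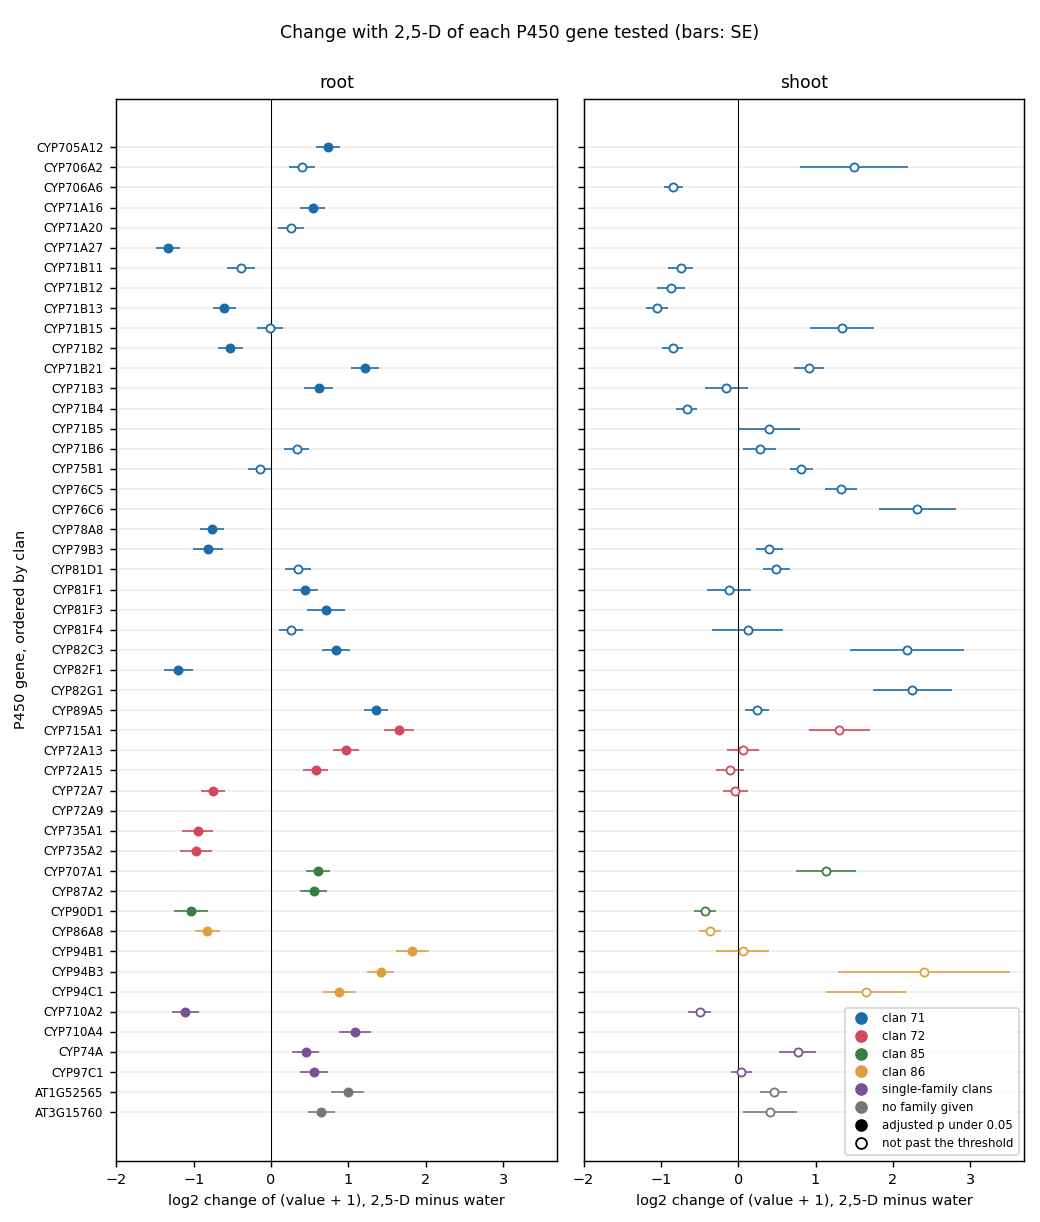
Log2 change of (value + 1), 2,5-D minus water, for each P450 gene tested in root (left, 41 genes) and shoot (right, 37 genes). Bars are standard errors from limma, colours mark clans and filled points passed an adjusted p of 0.05. In root 33 points are filled and in shoot none is.

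By clan, the root calls went both ways. Clan 71 had 8 members higher and 6 lower among 22 tested. These are 36.4% and 27.3%, near the 39% and 22.5% of all genes tested in root. Clan 72 had 3 and 3 among 6, clan 85 had 2 and 1 among 3, and clan 86 had 3 and 1 among 4. Clans with a single family had 3 higher and 1 lower among 4. Both short genes without a family rose. The median root change was 0.30 in clan 71, -0.088 in clan 72, 0.55 in clan 85 and 1.15 in clan 86. The other clans hold 2 to 6 tested genes each, too few to set against the background, and differences between clans were not tested.

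Jasmonate P450s rose in root, all 4 of the 4 listed, where 39% of all genes tested in root passed as higher. The hormone is made by way of CYP74A, and its active isoleucine conjugate is turned over by the CYP94 enzymes: CYP94B1 and CYP94B3 hydroxylate it and CYP94C1 carries the oxidation to the carboxyl form. CYP94B1 was at 16.4 and 9.98 in water libraries and 47.6 and 48.5 under 2,5-D in root (log2 change 1.83 with SE 0.22, adjusted p = 0.000211). Both treated libraries stood well above both controls, and 1893 of the 3691 listed genes had that order in root. CYP94B3 was at 183 and 152 in water libraries and 476 and 419.6 under 2,5-D in root (log2 change 1.42 with SE 0.17, adjusted p = 0.000233), and CYP94C1 at 39.8 and 26.2 in water libraries and 56.3 and 65 under 2,5-D (log2 change 0.88 with SE 0.21, adjusted p = 0.00522). CYP74A was at 288 and 240.01 in water libraries and 337 and 382 under 2,5-D (log2 change 0.45 with SE 0.17, adjusted p = 0.0441). In a single fit of all 8 libraries CYP94B3, CYP94C1 and CYP74A lost their calls, with adjusted p of 0.229, 0.156 and 0.145. CYP74A also lost its call without 2,5-D replicate 1 (0.166) or replicate 2 (0.325) and with equal medians (0.0842), and CYP94C1 without 2,5-D replicate 2 (0.0837).

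In shoots the same enzymes were split by the water libraries. CYP94B3 was at 3.48 and 36.1 in water libraries and 69.5 and 65 under 2,5-D in shoot. The control libraries lay far apart, both below the treated ones, and the fit gave a log2 change of 2.40 with an SE of 1.11 (adjusted p = 0.167). CYP94C1 (13.8 and 37 in water libraries and 66.2 and 81.6 under 2,5-D, adjusted p = 0.0834) and CYP74A (215 and 309 in water libraries and 437 and 442 under 2,5-D, adjusted p = 0.0789) had the same order of libraries, with replicate 1 of water lowest. CYP94B1 was low in shoot, at 1.26 and 0.94 in water libraries and 0.64 and 1.89 under 2,5-D, and its groups overlapped there.

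Of 16 jasmonate partner symbols 12 were matched to a locus, and 7 of these were in the tables. The unmatched symbols were not looked up. In root 5 of the 7 rose while none fell (71.4% higher, beside 39% of all genes tested). The 13-lipoxygenases LOX3, LOX4 and LOX6, which feed allene oxide synthase, had log2 changes of 1.37, 1.03 and 1.12. The cyclases AOC1 and AOC2, which act after CYP74A, had 2.25 and 1.59. AOC3 (423 and 269 in water libraries and 470.4 and 414 under 2,5-D in root) and IAR3, an amidohydrolase that cleaves the conjugate (126 and 118 in water libraries and 151 and 158 under 2,5-D), did not pass. The split of the shoot controls recurred in LOX3 (24.7 and 212 in shoot water) and LOX4 (23.5 and 234).

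**Figure D4:**
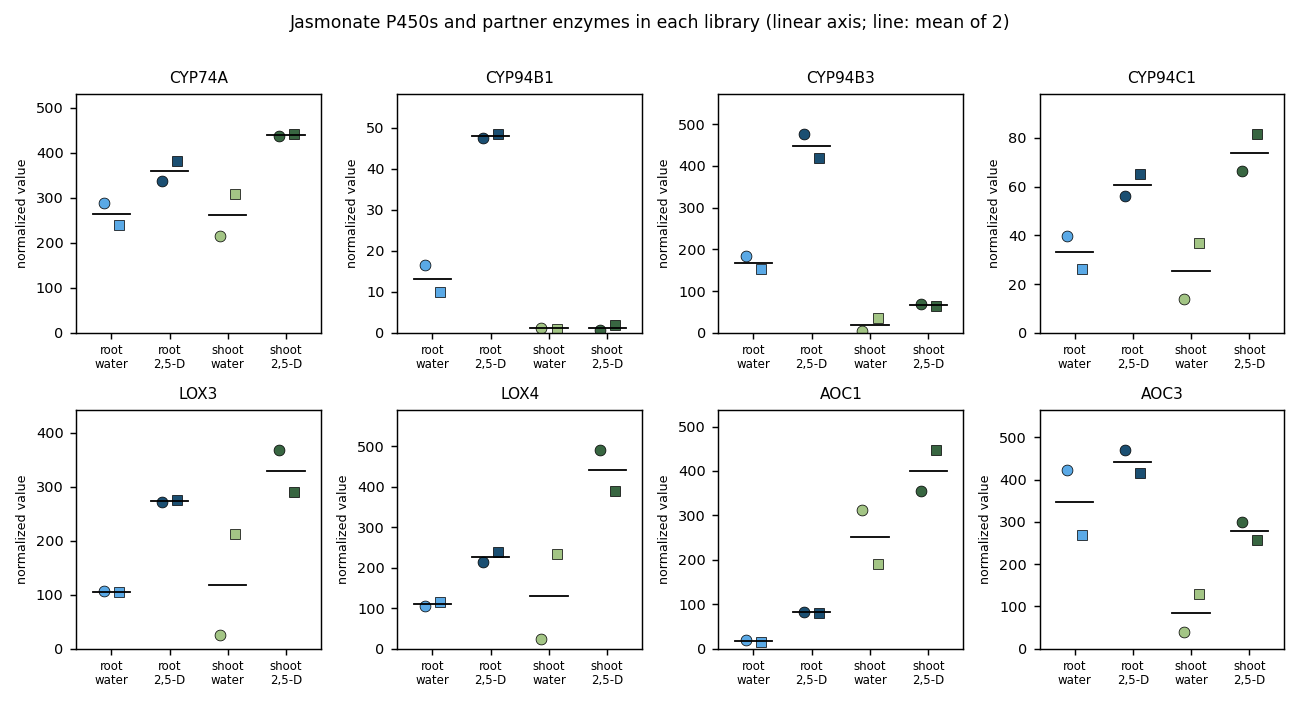
Deposited normalized value (linear axes from 0) in each of the 8 libraries for 4 jasmonate P450s and 4 partner enzymes. Circles are replicate 1, squares replicate 2 and lines the mean of 2. In shoot, CYP94B3, LOX3 and LOX4 show a wide gap between the water libraries, and CYP94B1 is high in root alone, at 9.98 to 48.5 against 0.64 to 1.89 in shoot.

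Hormone P450s outside the jasmonate route moved in both directions in root. CYP707A1, an abscisic acid 8′-hydroxylase that starts the hormone's breakdown, was at 38.6 and 33.8 in water libraries and 55.2 and 55.7 under 2,5-D and rose (log2 change 0.61 with SE 0.16, adjusted p = 0.00877). It lost the call without either 2,5-D library (0.0937 and 0.0932) and with all 8 libraries in a single fit (0.167). In shoot CYP707A1 was at 8.04 and 17.2 in water libraries and 29.1 and 25.2 under 2,5-D (adjusted p = 0.0975). Among 3 listed partners of abscisic acid, NCED3, a dioxygenase of its synthesis, rose in root (log2 change 0.51, adjusted p = 0.0472 by limma). Its values were 3.05 and 2.42 in water libraries and 5.15 and 3.59 under 2,5-D. NCED9, another such dioxygenase, was at 0.53 and 0.57 in water libraries and 1.84 and 1.78 under 2,5-D. NCED9 passed the filter only through the 2,5-D libraries, so its log2 change of 0.86 is no support for a rise. AAO3, the last enzyme of synthesis, was at 6.47 and 7.1 in water libraries and 5.95 and 7.58 under 2,5-D.

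CYP90D1, a brassinosteroid C-23 hydroxylase, fell in root, from 18.9 and 30.4 with water to 11.9 and 10.5 with 2,5-D (log2 change -1.04 with SE 0.22, adjusted p = 0.00294). Its shoot values were 3.74 and 3.7 in water libraries and 2.29 and 2.76 under 2,5-D, not past the threshold (adjusted p = 0.0936). Both 2,5-D values were below both water values there, as in 25.9% of listed genes. UGT73C5, a glucosyltransferase that inactivates brassinosteroids and the only listed partner of the 7, went the other way in root, from 0.95 and 1.06 to 7.13 and 6.52 (log2 change 1.96). It was much higher in shoot, at 78.5 and 45.3 in water libraries and 56.5 and 57.4 under 2,5-D.

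Both cytokinin P450s fell in root, where 22.5% of all genes tested passed as lower. CYP735A1 and CYP735A2 hydroxylate the side chain of isopentenyladenine-type precursors and so give trans-zeatin types, which in this species are made mainly in roots. CYP735A2 was at 11.2 and 16.8 in water libraries and 5.76 and 7.35 under 2,5-D (log2 change -0.97 with SE 0.21, adjusted p = 0.0034). CYP735A1 was at 3.06 and 4.38 in water libraries and 1.24 and 1.61 under 2,5-D (log2 change -0.95 with SE 0.20, adjusted p = 0.00311). The groups did not overlap for either gene, an order that 1163 of the 3691 listed genes had in root, so it is no support for a fall. Each lost the call without 2,5-D replicate 1 (0.0555 and 0.0538). In shoot both were near 0 and below the filter, at 0.65 and 0.56 in water libraries and 0.16 and 0.27 under 2,5-D for CYP735A2. Of the 4 listed partners, LOG1 and LOG7, which release the active base, rose in root (log2 changes 0.87 and 1.09). CKX5, a cytokinin oxidase, was at 2.53 and 2.84 in water libraries and 2.24 and 2.3 under 2,5-D in root and at 2.76 and 3.64 in water libraries and 15 and 9.8 under 2,5-D in shoot.

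CYP72A9, a gibberellin 13-hydroxylase, was below the filter in both organs and was not tested. Its shoot values were 0.08 and 0.24 in water libraries and 1.73 and 1.6 under 2,5-D, about 38 fragments at most, and its root values 0.12 and 0.22 in water libraries and 0.17 and 0.17 under 2,5-D. The 3 listed gibberellin partners all passed in root, where 39% of all genes tested passed as higher and 22.5% as lower. GA3OX1, which makes the active hormone, fell (-1.73), and GA2OX2 and GA2OX6, which inactivate it, rose (1.01 and 1.14).

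Sterol P450s of the CYP710A subfamily moved apart in root. These enzymes put the C-22 double bond into sterols. CYP710A2 fell from 5.57 and 6.17 to 1.97 and 2.42 (log2 change -1.11 with SE 0.17, adjusted p = 0.000821). CYP710A4 rose from 3.14 and 2.59 to 8.84 and 5.83 (log2 change 1.09 with SE 0.21, adjusted p = 0.00195). The proteins of this pair are 74.4% identical. CYP710A4 shares 93.9% with CYP710A3, so some of its reads could belong to that gene. In shoot CYP710A2 was at 14.6 and 16.1 in water libraries and 11.5 and 9.68 under 2,5-D (adjusted p = 0.0722), while CYP710A4 was listed at 0 in 3 of 4 libraries.

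CYP97C1, the carotene hydroxylase of lutein synthesis, was low in root and rose from 1.95 and 1.48 to 2.97 and 2.98 (log2 change 0.56 with SE 0.18, adjusted p = 0.0241), a call lost without either 2,5-D library or without water replicate 2 (adjusted p of 0.141, 0.137 and 0.0700). In shoot, where it was higher, its groups overlapped at 11.1 and 9.79 in water libraries and 11.3 and 10.2 under 2,5-D. CYP86A8, a fatty acid ω-hydroxylase of cutin, fell in root from 9.44 and 7.96 to 4.35 and 4.57 (log2 change -0.83 with SE 0.16, adjusted p = 0.00238) and was at 8.59 and 7.11 in water libraries and 5.62 and 6.08 under 2,5-D in shoot. Among 4 listed partners of cutin, suberin and wax, ASFT, which adds ferulate to suberin, fell (-0.998) and the transporter ABCG1 rose (0.60).

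P450s of indolic defence did not move as a block. CYP79B3, which converts tryptophan to indole-3-acetaldoxime at the head of the indole glucosinolate and camalexin routes, fell in root from 118 and 168 to 81.7 and 77.7 (log2 change -0.81 with SE 0.19, adjusted p = 0.00544). In shoot it was at 48.1 and 39.6 in water libraries and 59.5 and 56.4 under 2,5-D. The 2,5-D pair was thus below the water pair in root and above it in shoot. The call in root was lost without either 2,5-D library (0.0758 and 0.0909).

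CYP81F1 and CYP81F3, which hydroxylate the indole ring of indole glucosinolates, rose in root. CYP81F1 was at 39.3 and 32.1 in water libraries and 47.7 and 49.7 under 2,5-D (log2 change 0.44 with SE 0.17, adjusted p = 0.0417). CYP81F3 was at 48.9 and 28.2 in water libraries and 54.9 and 68.6 under 2,5-D (log2 change 0.71 with SE 0.25, adjusted p = 0.0307). Both calls were lost under 5 of 10 alternatives, with adjusted p up to 0.223 and 0.241. The water values of CYP81F3 lay apart, and its log2 change was 1.09 without water replicate 1 and 0.32 without water replicate 2. CYP81F4, their neighbour on the chromosome, was at 408 and 410.4 in water libraries and 510.4 and 471 under 2,5-D (adjusted p = 0.159). In shoot CYP81F1 (14.8 and 8.61 in water libraries and 9.79 and 10.9 under 2,5-D) and CYP81F4 (47.5 and 23.9 in water libraries and 47.7 and 28.3 under 2,5-D) overlapped between groups, and CYP81F3 was at 0.51 and 0.5 in water libraries and 1.35 and 1.02 under 2,5-D.

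CYP71B15, known as PAD3, carries out the last step of camalexin synthesis. In root its groups overlapped, at 18.9 and 22.7 in water libraries and 19.5 and 21.7 under 2,5-D. In shoot it was at 61.4 and 33.2 in water libraries and 93 and 145 under 2,5-D (log2 change 1.34, SE 0.42, adjusted p = 0.0803). CYP71B6, which acts on indole-3-acetonitrile, was at 67.9 and 78.5 in water libraries and 97.3 and 87 under 2,5-D in root and 73 and 53.9 in water libraries and 76.6 and 76.2 under 2,5-D in shoot, and passed in neither. Of 21 indolic and aliphatic partner symbols 19 were matched to a locus, and 6 of these were in the tables. SUR1, SOT16 and SOT17 of the glucosinolate core pathway fell in root (log2 changes -0.70, -0.49 and -1.06), GGP1 rose (0.39), and BCAT4 and PEN2 did not pass.

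CYP75B1 is flavonoid 3′-hydroxylase, which sets the quercetin type of flavonols and the cyanidin type of anthocyanins. It was at 9.37 and 10.2 in water libraries and 8.26 and 9.27 under 2,5-D in root (adjusted p = 0.447) and at 10.5 and 8.41 in water libraries and 17.7 and 17 under 2,5-D in shoot (log2 change 0.82, SE 0.15, adjusted p = 0.0524). Shoot groups did not overlap, with both 2,5-D values above both water values as in 49.7% of listed genes. CHS, the first enzyme of the flavonoid branch and 1 of 3 listed partners, fell in root (-0.67) and was at 177 and 136 in water libraries and 192 and 185 under 2,5-D in shoot.

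Terpene P450s were divided between the organs. CYP82G1, which forms the volatile homoterpene TMTT, was at 1.08 and 4.27 in water libraries and 16.4 and 13.2 under 2,5-D in shoot (log2 change 2.25 with SE 0.51, adjusted p = 0.0537) and at or near 0 in root. CYP76C5 and CYP76C6 lie next to each other and are 87.5% identical in protein; their subfamily is known for oxidising linalool and related alcohols. CYP76C6 was at 1.95 and 4.99 in water libraries and 14.5 and 27.2 under 2,5-D in shoot (log2 change 2.31 with SE 0.50, adjusted p = 0.0527). CYP76C5 was at 0.23 and 0.27 in water libraries and 1.76 and 2.6 under 2,5-D (log2 change 1.33 with SE 0.21, adjusted p = 0.0524). In all 3 genes both treated shoot values exceeded both controls, as in 49.7% of listed genes. All but 2 listed genes separated in at least 1 organ. CYP76C5 and CYP76C6 did not separate in root, so their order in shoot is no support for a change. CYP76C5 rests on about 47 fragments at most in any library. It passed the filter in shoot only through its 2,5-D values, so its adjusted p is no support for a change. CYP71A20 was at 96.6 and 85.7 in water libraries and 118 and 100.5 under 2,5-D in root (adjusted p = 0.199); it shares 89.4% with CYP71A19, so its reads could be shared.

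Both listed triterpene P450s of the marneral cluster rose in root, where 39% of all genes tested passed as higher. CYP705A12 and CYP71A16 sit beside each other, and CYP71A16 is known to modify marnerol, a root triterpene. CYP705A12 was at 26.4 and 25.6 in water libraries and 45 and 42.9 under 2,5-D (log2 change 0.73 with SE 0.15, adjusted p = 0.00288). CYP71A16 was at 31.5 and 31.8 in water libraries and 49.4 and 43.5 under 2,5-D (log2 change 0.54 with SE 0.16, adjusted p = 0.0154). No control value reached a treated one, as in 1893 of the 3691 listed genes in root. Without 2,5-D replicate 1 the adjusted p was 0.0517 for CYP705A12 and 0.163 for CYP71A16, and CYP71A16 also missed the threshold without 2,5-D replicate 2 (0.0709). THAS1, the thalianol synthase of another root cluster, was at 54.4 and 53.1 in water libraries and 72.1 and 65.2 under 2,5-D (adjusted p = 0.0806).

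The CYP71B subfamily showed a common order in a run of neighbours. CYP71B11, CYP71B12 and CYP71B13 lie together, with proteins 81.5% to 90.9% identical, so reads may be shared most between CYP71B11 and CYP71B12. All 3 had lower values with 2,5-D in both organs, with no overlap. Of the 3691 listed genes, 1163 had this order in root and 957 in shoot, each organ taken alone. The number with it in both organs is not given, and the listing itself looks tied to such separation. CYP71B13 fell in root, from 13.7 and 14 to 8.87 and 8.64 (log2 change -0.61 with SE 0.15, adjusted p = 0.00683), and was at 4.78 and 4.67 in water libraries and 1.59 and 1.96 under 2,5-D in shoot (log2 change -1.05 with SE 0.14, adjusted p = 0.0524). CYP71B11 was at 2.65 and 2.71 in water libraries and 2.11 and 1.55 under 2,5-D in root (adjusted p = 0.0927) and at 7.28 and 6.44 in water libraries and 3.27 and 4.16 under 2,5-D in shoot (adjusted p = 0.0527). CYP71B12 was below the filter in root, at 1.39 and 1.07 in water libraries and 0.72 and 0.45 under 2,5-D, and at 3.41 and 2.5 in water libraries and 1.23 and 1.08 under 2,5-D in shoot (adjusted p = 0.0526). The call of CYP71B13 was lost without either 2,5-D library (0.0504 and 0.0528).

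Other CYP71B genes differed from that run. CYP71B2 had its order, falling in root from 7.39 and 8.55 to 5.22 and 5.22 (log2 change -0.53 with SE 0.16, adjusted p = 0.0189), with 11.7 and 10.2 in water libraries and 5.91 and 5.38 under 2,5-D in shoot. This call held without root water replicate 1 and was lost without any of the other 3 libraries. CYP71B21 rose in root from 0.84 and 1.21 to 3.83 and 3.54 (log2 change 1.22 with SE 0.18, adjusted p = 0.000719). In shoot it was at 0.5 and 0.93 in water libraries and 2.18 and 2.23 under 2,5-D (adjusted p = 0.0527). It passed the filter there only through its 2,5-D values. Its protein shares 88.4% with CYP71B22. CYP71B3 rose in root from 3.05 and 4.35 to 6.69 and 5.61 (log2 change 0.62 with SE 0.19, adjusted p = 0.0199) and this call held without root water replicate 2 and was lost without any of the other 3 libraries. Its shoot values overlapped, at 32.4 and 19.8 in water libraries and 23.2 and 22.1 under 2,5-D. CYP71B4 was at 19.1 and 19.6 in water libraries and 11 and 12.7 under 2,5-D in shoot (adjusted p = 0.0524) and CYP71B5 at 22.4 and 46.4 in water libraries and 47 and 39.5 under 2,5-D, where the groups overlapped.

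Neighbours of the CYP72A subfamily took opposite directions in root. CYP72A7 fell from 38.2 and 42 to 23.2 and 23.5 (log2 change -0.75 with SE 0.15, adjusted p = 0.00267). CYP72A13 rose from 14.6 and 18.2 to 34.7 and 31.3 (log2 change 0.97 with SE 0.17, adjusted p = 0.0013). CYP72A15 rose from 24.7 and 28.6 to 42.5 and 38.1 (log2 change 0.58 with SE 0.16, adjusted p = 0.0123). The pair that rose is 88.3% identical in protein, CYP72A7 shares 74% and 70.9% with them, and CYP72A13 shares 90.8% with CYP72A11, so reads could be shared. CYP72A15 lost its call without either 2,5-D library (0.132 and 0.0649). In shoot the groups of all 3 overlapped, with CYP72A7 at 9.83 and 8.14 in water libraries and 7.97 and 9.5 under 2,5-D and CYP72A13 at 62 and 47.4 in water libraries and 53.8 and 59.6 under 2,5-D.

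**Figure D5:**
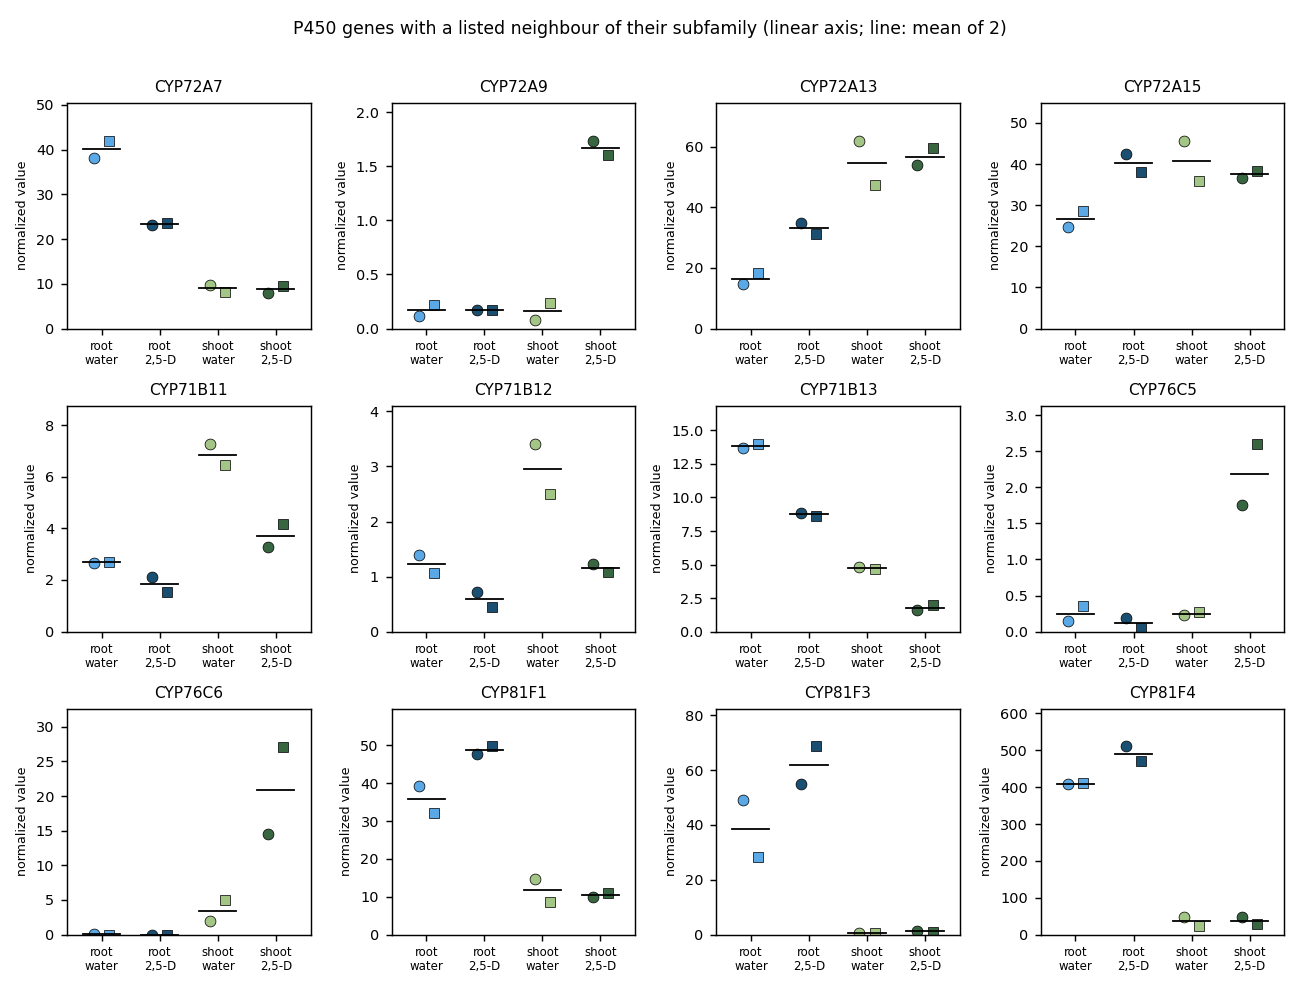
Deposited normalized value (linear axes from 0) in each library for 12 P450 genes with a listed neighbour of their own subfamily. Circles are replicate 1, squares replicate 2 and lines the mean of 2. CYP71B11, CYP71B12 and CYP71B13 are lower with 2,5-D in both organs, while CYP72A7 is lower and CYP72A13 and CYP72A15 are higher in root.

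Among the members without a role list, CYP715A1 of clan 72 had a large root rise, from 5.97 and 8.65 to 22.9 and 26.8 (log2 change 1.65 with SE 0.19, adjusted p = 0.000196). In shoot it was at 0.14 and 1.12 in water libraries and 3.52 and 2.27 under 2,5-D. CYP89A5 rose in root from 21.6 and 21.3 to 59.2 and 53.4 (log2 change 1.35 with SE 0.16, adjusted p = 0.000192) and was at 32.1 and 27.2 in water libraries and 35.8 and 34.3 under 2,5-D in shoot; its protein is 96.5% identical to that of AT2G12190. CYP82C3 rose in root from 2.1 and 1.94 to 3.99 and 4.85 (log2 change 0.84 with SE 0.18, adjusted p = 0.00294). The call was lost with all 8 libraries in a single fit (0.274) and without 2,5-D replicate 2 (0.0516), and the gene shares 88.7% with CYP82C4. Its shoot values, 0.5 and 4.37 in water libraries and 16 and 8.72 under 2,5-D, had the split of the water libraries seen in CYP94B3. CYP87A2 of clan 85 was at 13.2 and 13.7 in water libraries and 17.4 and 23.3 under 2,5-D in root and rose (log2 change 0.55 with SE 0.18, adjusted p = 0.0225), but not without 2,5-D replicate 2, where its log2 change was 0.35 (adjusted p = 0.196).

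The short genes both rose in root, where 39% of all genes tested passed as higher. AT1G52565 was at 11.5 and 7.87 in water libraries and 23.2 and 17 under 2,5-D (log2 change 0.99 with SE 0.21, adjusted p = 0.00329). AT3G15760 was at 21.3 and 16.6 in water libraries and 31.1 and 29 under 2,5-D (log2 change 0.65 with SE 0.17, adjusted p = 0.00913). Their proteins are 72.1% identical. AT1G52565 missed the threshold without 2,5-D replicate 1 (0.0563), and AT3G15760 without either 2,5-D library (0.0924 and 0.0581). In shoot AT1G52565 was at 4.12 and 5.66 in water libraries and 7.04 and 7.01 under 2,5-D and AT3G15760 at 32.9 and 60.7 in water libraries and 61.9 and 58 under 2,5-D.

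CYP71A27 and CYP82F1, which are in no role list, also fell in root. CYP71A27 fell from 24.8 and 28 to 9.51 and 10.1 (log2 change -1.34 with SE 0.16, adjusted p = 0.000198), and CYP82F1 from 15 and 14.8 to 4.88 and 7.11 (log2 change -1.20 with SE 0.19, adjusted p = 0.00079). Both calls held under all 10 alternatives. CYP78A8, whose family holds the organ growth regulator KLUH, fell from 26.7 and 30.2 to 15.6 and 17.1 (log2 change -0.76 with SE 0.16, adjusted p = 0.00283). It missed the threshold without 2,5-D replicate 1 (0.0504). All 3 were near or below a value of 1 in every shoot library.

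The last 3 members passed in neither organ, and CYP706A6 was not tested in root. CYP706A2 was at 289 and 243 in water libraries and 326 and 378 under 2,5-D in root (adjusted p = 0.0634) and at 46.1 and 168 in water libraries and 286 and 219.9 under 2,5-D in shoot, with the gap between its water libraries there again in favour of replicate 2. It shares 97.5% with CYP706A1, so its reads may be mixed. CYP706A6 was at 6.88 and 6.39 in water libraries and 3.27 and 3.25 under 2,5-D in shoot (adjusted p = 0.0524), near 0 in root, and shares 88.4% with CYP706A5. CYP81D1 was at 17.6 and 15.1 in water libraries and 23.2 and 19 under 2,5-D in root and 46.7 and 38.3 in water libraries and 59.2 and 60.7 under 2,5-D in shoot.

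Of the enzymes that act on P450 products, tau and phi glutathione transferases and UGT73 glucosyltransferases were the largest listed set, with 24 of 50. In root 16 of these 24 rose (66.7%, beside 39% of all genes tested) and 1 fell (background 22.5%), with a median log2 change of 0.63 beside 0.26 over all tested genes. GSTU5, a tau class transferase, was at 102 and 75.3 in water libraries and 498 and 479.7 under 2,5-D (log2 change 2.47), and UGT73B2 at 9.11 and 11 in water libraries and 55.1 and 45.6 under 2,5-D (2.21). GSTU23 fell (-1.08). Of the 8 electron donors of P450s on the partner list, 7 were matched to a locus. None of these 7 was in the tables, so the reductases are not analysed here.

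The change with 2,5-D was then compared between organs, with the root change minus the shoot change tested in a single fit of all 8 libraries. Of 47 members tested, 5 had a higher root than shoot change (10.6%, background 10.4%) and 8 a lower one (17.0%, background 22.5%). These shares are near or below the background. Of the 13 genes, 7 were below the filter in 1 organ, and with a pseudocount of 1 a gene near 0 can hardly change there, so the difference only restates the change in the other organ. These 7 are CYP71A27, CYP82F1 and CYP735A1, near 0 in shoot, and CYP706A6, CYP71B4, CYP76C6 and CYP82G1, near 0 in root, and they are not read as a difference between organs. Of the 30 members past the filter in both organs, 3 had a higher root than shoot change (10%, beside 8.37% of such genes) and 3 a lower one (10%, beside 22.1%). The higher 3 were CYP89A5 (log2 change 1.11 with SE 0.20, adjusted p = 0.0177), CYP94B1 (1.77), which is close to the filter in shoot, and CYP72A13 (0.91). The lower 3 were CYP79B3 (-1.22), CYP75B1 (-0.96) and CYP72A7 (-0.72). With equal medians the calls of CYP79B3, CYP75B1 and CYP72A7 were lost (0.0848, 0.0782 and 0.215), and with a pseudocount of 0.1 those of CYP94B1 and CYP72A7 (0.0883 and 0.0558). None of these 13 calls held whichever of the 8 libraries was left out. No member passed without root 2,5-D replicate 1, shoot 2,5-D replicate 1 or shoot 2,5-D replicate 2. Without root 2,5-D replicate 2 the counts were 2 and 3, without root water replicate 1 they were 3 and 6, without root water replicate 2 they were 2 and 1, and without shoot water replicate 2 they were 9 and 14.

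Of the 30 members tested in both organs, 17 had positive log2 changes in both and 7 negative changes in both. Another 3 were positive in root and negative in shoot, and 3 the reverse. The changes correlated at r = 0.546 across these 30 genes, given as a description, since genes of the same libraries are not independent.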

How the data were processed

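Root and shoot RNA of 8 libraries was compared. Reads were aligned with HISAT2 2.0.4, per the submitters' processing notes. For the quantifier, the genome build and the rule that chose the listed genes, the sources used here give nothing. Each organ has a deposited table of normalized expression signal per gene, and the file headers name no unit. Depth is therefore unknown, and the rounding to 2 decimals limits low values. Both shoot 2,5-D columns carry the same header, so their numbers are names only.

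The members, role lists, partner lists and tests were chosen with earlier results of these data known. Symbols, products, transcript lengths and neighbours came from the RefSeq annotation of TAIR10.1, matching all 3691 IDs. Protein identity is over the shorter of a globally aligned pair, translated from that annotation. In the partner lists 3 symbols that belong to other genes there were dropped.

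Log2(value + 1) was fitted with limma 3.58.1 in R 4.3.3, with a mean-variance trend, for genes whose mean over the fitted libraries was 1 or more. Log2 changes are on that scale and understate changes of low genes. P-values were adjusted by Benjamini-Hochberg over all genes tested, with calls at 0.05. With 2 libraries against 2, the smallest p of an exact permutation test is 0.333, and none was used. Named were the 10 largest rises and falls per organ, all members of role lists, the 8 smallest adjusted p of the organ difference, the most abundant members and pairs over 85% identical; the remaining members follow for completeness. The fits were also run on simulated data with the same spread in all groups of a gene. That setting has neither the wide shoot water pair nor the choice of listed genes, so it is no check on these. Alternatives were a pseudocount of 0.1, no filter, no trend, equal medians, the replicate number as a block, all 8 libraries in a single fit and each library left out.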

Additional observations from a re-analysis of the deposited data

Results flagged for a closer look

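Of 30 P450 genes past the filter on low values in both organs, 6 had a root change that differed from the shoot change. The threshold was an adjusted p under 0.05 in limma's test of that difference. The root change was higher in 3 (10%, beside 8.37% of such genes) and lower in 3 (10%, beside 22.1%). These shares are near or below the background. Values below are log2, root change minus shoot change. The root change was the higher 1 in CYP94B1 at 1.77, CYP89A5 at 1.11 and CYP72A13 at 0.91. CYP94B1 was close to the filter in shoot, at 0.64 to 1.89.

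The root change was lower than the shoot change in CYP79B3 at -1.22, CYP75B1 at -0.96 and CYP72A7 at -0.72. No call held in every fit with a library left out.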

How the results depend on the processing

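In root, no filter, no trend and a pseudocount of 0.1 kept all 41 members' directions and calls. With the replicate number as a block, 21 members were higher and 12 lower, with no call changed. Deviations of same-numbered root libraries correlated at -0.0494 across genes. No pairing by number was seen, though a single correlation cannot exclude it. No paired analysis was possible for the shoot or the organ difference because both shoot 2,5-D columns carry the same number. Equal medians weakened 3 root calls. All 8 libraries in a single fit gave 11 higher in root, and 10 higher and 7 lower in shoot. Leaving out a library gave 9 to 23 higher and 6 to 12 lower in root, 0 to 18 higher and 0 to 10 lower in shoot, and 0 to 9 and 0 to 14 in the organ difference. The lone library is then assumed to vary like the other groups.

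Equal medians shifted the median of all genes by -0.068 in root, -0.38 in shoot and 0.31 in the organ difference. They gave 1 member higher and 7 lower in shoot (median -0.12), beside 68 and 435 of 3373 genes tested. In the organ difference 4 members were lower, beside 236 of 3601 genes tested. Under equal medians the shoot change turned negative for CYP89A5 (-0.16), CYP71B6 (-0.12), CYP72A13 (-0.34), CYP97C1 (-0.33), CYP81F4 (-0.27) and CYP94B1 (-0.15). A pseudocount of 0.1 gave 3 higher and 4 lower in the organ difference, with a median of -0.14 against 0.14; without a library that median ran from -0.12 to 0.22. With 2,5-D libraries alone, 22 members were above root in shoot (background 40%). The cause was not tested.

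Signs also turned with a library left out. The root change of CYP71B15 ran from -0.14 to 0.11. Shoot changes ran from -0.16 to 0.087 in CYP72A7, from -0.13 to 0.25 in CYP72A13 and from -0.28 to 0.064 in CYP72A15. They ran from -0.018 to 0.84 in AT3G15760, from -0.50 to 0.19 in CYP71B3, from -0.046 to 0.12 in CYP97C1 and from -0.11 to 0.91 in CYP71B5. For CYP81F4 they ran from -0.36 to 0.60, for CYP81F1 from -0.48 to 0.24 and for CYP94B1 from -0.054 to 0.46. None of these genes was called in shoot with all libraries. Without shoot water replicate 2, the ends at 0.84 in AT3G15760, 0.91 in CYP71B5, -0.50 in CYP71B3 and -0.48 in CYP81F1 passed, and without shoot water replicate 1 the end at 0.60 in CYP81F4 passed. Values near 0 rest on a few fragments, which limits what could be seen there.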
